A study of Drosophila melanogaster with 2 samples.

Results

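Sequoia, the product of the Drosophila gene seq, was mapped on chromatin in 2 ChIP-seq libraries, and 628 of its peaks appeared in the stringent peak list of replicate 2 with no counterpart in that of replicate 1. Both libraries were made from whole embryos of Drosophila melanogaster, 0 to 24 h old, of a transgenic strain whose seq gene product is fused to eGFP (enhanced green fluorescent protein). An anti-GFP antibody was used for the precipitation. The labels give these as biological replicates 1 and 2 of 1 group, with no other genotype, treatment or stage. The collection spans embryogenesis and every tissue of the embryo, so a peak may come from few cells or from many. Each library is 1 sample and the peaks were chosen by comparing the 2 lists, so no test between libraries was possible, and all values below are descriptions.

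The authors deposited for each library a ranked list of all peak candidates and a thresholded list, whose members had an irreproducible discovery rate (IDR) of 0.01 or less. The IDR used here is the global one, an estimate of the share of irreproducible peaks among all that rank at least as high. A low value marks a reproducible peak, though which data were compared to obtain it is not stated. Only 2.59% of the 103091 ranked peaks of replicate 2 on the chromosome arms were kept in its thresholded list, which held 2675 peaks there. A peak was taken as replicate 2 only if it shared no base with any of the 4069 thresholded peaks of replicate 1 on the arms. The 628 peaks that met this rule were 23.5% of the replicate 2 list, and the other 2047 are called shared below. The reverse comparison left 2001 replicate 1 only peaks, 49.2% of the replicate 1 list. Peak strength is the authors' signal value on each library's own scale. The number of reads behind a peak is unknown, and the 95% intervals on shares and medians cover counting error only.

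Sequoia has zinc fingers and acts in the developing nervous system, where it is needed for normal axons and dendrites. ChIP-seq peaks of such factors in whole embryos mark places where the tagged protein was cross-linked to DNA directly or through other proteins. Promoters lie at the transcription start site (TSS) of a gene, and in the compact fly genome many genes lie head to head and share a short promoter region. Introns and intergenic DNA hold many of the enhancers that set where and when fly developmental genes are expressed.

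The DNA under most of the strongest replicate 2 only peaks was rich in A and T. Sequences of leading peaks, chosen for their signal, their low GC content or their replicate 1 value, are given here as the summit with 100 bases on each side, read from the plus strand of Release 6 (dm6). Capitals mark matches on either strand to short motifs counted further on, which here are the TATA box, the homeobox core, the GATA element, the word ACAGTG and runs of 8 or more A. The first stretch is from the strongest peak, at the ferritin genes Fer2LCH and Fer1HCH (chr3R:30388331-30388531), with 35.8% GC.
Fer2LCH: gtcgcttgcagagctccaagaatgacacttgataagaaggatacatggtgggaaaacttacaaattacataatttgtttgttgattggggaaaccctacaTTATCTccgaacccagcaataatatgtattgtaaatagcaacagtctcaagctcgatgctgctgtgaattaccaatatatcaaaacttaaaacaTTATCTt
The second strongest peak lay at SerRS, which encodes seryl-tRNA synthetase (chr2L:3037271-3037471), and had 28.4% GC.
SerRS: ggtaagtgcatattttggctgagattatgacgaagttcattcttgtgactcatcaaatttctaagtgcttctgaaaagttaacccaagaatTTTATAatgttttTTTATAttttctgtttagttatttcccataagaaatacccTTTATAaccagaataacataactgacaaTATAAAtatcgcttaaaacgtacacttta
The peak at the promoter of Sirt1, a protein deacetylase gene, and DnaJ-H, a chaperone gene (its summit lies inside the annotated DnaJ-H gene, chr2L:13165211-13165411), had 18.4% GC, the lowest of all 628 peaks.
Sirt1: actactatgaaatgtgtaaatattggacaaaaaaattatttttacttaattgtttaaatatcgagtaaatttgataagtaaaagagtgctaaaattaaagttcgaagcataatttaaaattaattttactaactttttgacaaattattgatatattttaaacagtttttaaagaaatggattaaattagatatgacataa
The peak between CG2100 and CG1236 (chr3R:5736413-5736613) had 19.9% GC.
CG2100: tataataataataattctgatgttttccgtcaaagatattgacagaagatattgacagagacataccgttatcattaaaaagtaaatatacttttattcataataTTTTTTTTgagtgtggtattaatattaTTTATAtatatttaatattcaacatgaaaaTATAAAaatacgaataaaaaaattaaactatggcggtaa
The peak upstream of CG14853 (chr3R:14609258-14609458) had 23.4% GC.
CG14853: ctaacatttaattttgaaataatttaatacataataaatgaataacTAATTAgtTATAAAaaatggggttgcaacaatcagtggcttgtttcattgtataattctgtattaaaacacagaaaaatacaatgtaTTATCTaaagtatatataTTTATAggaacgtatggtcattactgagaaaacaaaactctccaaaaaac
The summit near Cpr76Ba, a cuticular protein gene (chr3L:19516632-19516832), is shown because no ranked peak of replicate 1 covered it. It had 36.8% GC and 2 copies of ACAGTG.
Cpr76Ba: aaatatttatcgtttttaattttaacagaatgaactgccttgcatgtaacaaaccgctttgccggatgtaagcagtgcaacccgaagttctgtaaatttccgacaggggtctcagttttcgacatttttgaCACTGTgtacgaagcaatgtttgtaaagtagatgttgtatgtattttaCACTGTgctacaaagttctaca
The last stretch is from the neuronal RNA-binding protein gene elav (chrX:520556-520756). Its summit lies 371 bp upstream of the nearest elav TSS but inside the annotated gene. This stretch goes against the others with 54.7% GC. It is shown because it had the highest replicate 1 signal of all the replicate 2 only peaks.
elav: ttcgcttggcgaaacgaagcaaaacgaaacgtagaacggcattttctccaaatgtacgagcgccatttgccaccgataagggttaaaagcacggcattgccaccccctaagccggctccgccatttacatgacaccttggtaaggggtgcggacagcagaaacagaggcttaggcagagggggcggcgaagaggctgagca

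Replicate 2 only peaks were mostly weak members of their list. Their signal in replicate 2 ran from 2.01 to 144.6 with a median of 53.0 (interval 51.8 to 54.5), against a median of 80.5 (78.4 to 82.6) for the shared peaks. Their median rank was 2034.5 of 2675. None of the 250 strongest replicate 2 peaks was replicate 2 only, and 2 of the next 250 were. The share then rose to 4.60% of ranks 501 to 1000, to 18.8% of ranks 1001 to 1500, to 36.2% of ranks 1501 to 2000 and to 54.0% of ranks 2001 to 2500. Among the last 175 peaks it was 33.1%. Signal is part of how peaks enter the lists, so these values describe the selection.

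Those weakest peaks included many that sat beside a stronger one. Of the 628 peaks, 43 had a signal under 20, and 41 of these lay within 500 bp of a ranked replicate 2 peak with a signal over 40. In all, 90 of the 628 overlapped another replicate 2 only peak, so the 628 peaks made up 583 separate regions. Every replicate 2 only peak was 350 bp wide, as were 84.2% of the shared ones.

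Almost every site was also covered by a peak in the full ranked list of replicate 1. Of the 628 peaks, 611 overlapped at least 1 of its 99135 ranked peaks (97.3%, interval 95.7 to 98.4). That ranked list covers 24.4% of the chromosome arms, which is a background for single positions only. A peak of 350 bp placed anywhere would touch the list more often than that. The summit itself lay inside a ranked replicate 1 peak for 93.5% of replicate 2 only peaks and 97.1% of shared peaks. For 357 peaks there was 1 such replicate 1 peak, for 237 there were 2 and for 17 there were 3. The summits were close, with a median distance of 49 bp to the strongest overlapping replicate 1 peak, against 27 bp at shared peaks. With the stricter demand of summits within 100 bp, 81.5% of replicate 2 only peaks and 93.6% of shared peaks had a partner.

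Replicate 1 signal at these sites was lower than at shared sites, as the choice of peaks makes likely. The strongest overlapping replicate 1 peak had a median signal of 38.9 (interval 37.7 to 39.98) and a median rank of 6108 of 99135, against a signal of 96.1 and a rank of 1158 at shared peaks. The log2 ratio of replicate 1 to replicate 2 signal had a median of -0.53 at replicate 2 only peaks and 0.14 at shared peaks. Replicate 1 still had the higher signal at 94 of the 611 sites (15.4%), against 61.6% of shared peaks. Part of the 94 were peaks with a replicate 2 signal under 20, most of them beside a stronger replicate 2 peak. All 43 such peaks met a ranked replicate 1 peak, with a median signal of 39.5 and a lower quartile of 24.9. No rescaling between libraries is stated, so the ratios are read only against each other.

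**Figure D1:**
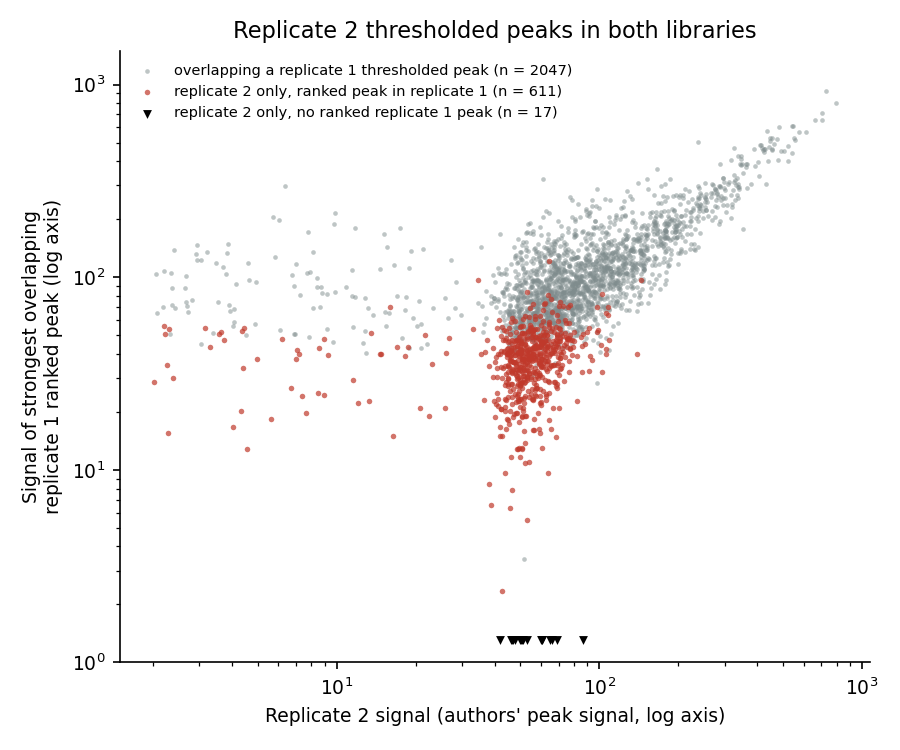
Each point is a thresholded replicate 2 peak, with its signal in replicate 2 on the x axis and the signal of the strongest overlapping ranked replicate 1 peak on the y axis (both log axes, authors' signal values). The 611 red points (median replicate 1 signal 38.9) lie below most of the 2047 grey shared points (median 96.1), and the 17 black triangles, drawn at the foot of the plot, have no replicate 1 value.

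The replicate 1 IDR placed some of these sites just outside its list and others far from it. The lowest IDR of any overlapping replicate 1 peak had a median of 0.0839. It lay between 0.01 and 0.02 for 136 peaks (21.7%), between 0.02 and 0.05 for 122, between 0.05 and 0.1 for 74, between 0.1 and 0.5 for 151, and above 0.5 for 128. Counting every replicate 1 peak with an IDR up to 0.1 as a match would leave 296 replicate 2 only peaks, and counting every ranked peak would leave 17. The nearest to the limit was an intronic peak of the kinase gene Drak, with a replicate 1 IDR of 0.01002 and signals of 63.0 in replicate 2 and 41.6 in replicate 1. It was followed by the promoter of Hat1 and Rpn5 (replicate 1 IDR 0.0101), an intron of the Hox gene Antp (0.0101), a site 13088 bp from lncRNA:cherub (0.0102) and an intron of trio (0.0102).

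The limits on the replicate 2 side and on overlap were also narrow in places. The highest own IDR of a replicate 2 only peak was 0.01 when rounded, in an intron of CG5151, and the first ranked peak beyond the limit, at HDAC4, had 0.01002 with a signal of 54.4. The smallest gap to a replicate 1 thresholded peak was 5 bp, at the promoter shared by koko and Wdr37, and the smallest overlap that made a peak shared was 9 bases, at PRAS40. The upper quartile of own IDR among the 628 was 0.0062. Many shared peaks overlapped only in part, since asking for a reciprocal overlap of 50% would leave 925 replicate 2 only peaks. Asking for summits within 100 bp would leave 813. Near misses by distance were few. Within 100 bp of a replicate 1 thresholded peak lay 7 of the 628, and within 500 bp lay 76 (12.1%). The median gap was 5866.5 bp, and 228 peaks (36.3%) were over 10000 bp from any replicate 1 thresholded peak.

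The lists that the authors made from both libraries held most of these sites. A conservative peak overlapped 393 of the 628 (62.6%, interval 58.7 to 66.4), while 90.3% of all replicate 2 thresholded peaks and 98.8% of shared ones had one. A peak of the pooled list overlapped 517 (82.3%), and 90 (14.3%) were in neither list. Reads of replicate 2 went into both lists, so this overlap is no independent check. Of the peaks that had a ranked replicate 1 peak, the 389 with a conservative peak had a median replicate 1 signal of 43.6 and the 222 without had 26.1. Their replicate 2 signals were closer, with a median of 56.0 (54.5 to 57.6) over the 393 and an interval of 49.1 to 51.2 for the median over all 235 without a conservative peak.

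The 17 peaks without any ranked replicate 1 peak had replicate 2 signals of 41.9 to 86.5, with a median of 51.3. The strongest lay 719 bp upstream of Sesn, the sestrin gene of the stress response, with a signal of 86.5 and rank 930. It was 188 bp from a replicate 1 thresholded peak. Next came the site 1600 bp from Cpr76Ba (69.2), the promoter of the tetraspanin gene Tsp29Fb (66.0, summit 214 bp upstream), an intron of fog, whose product starts cell shape change in gastrulation (64.6), and a site in an intron of the synapsin gene Syn, 600 bp from Timp (60.7). Further members lay 30450 bp from the cell death gene rpr (59.9) and 3622 bp from the heart gene tin (46.8). Of the 17, 4 lay at promoters, 4 overlapped a conservative peak and 7 a pooled peak.

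At the other end, 18 of the 628 had a replicate 1 signal above 69.5, the median of the replicate 1 thresholded list. The elav promoter led with 122.0 in replicate 1 against 64.3 in replicate 2 and a replicate 1 IDR of 0.0547. The ferritin site had 96.6 in replicate 1 with an IDR of 0.492, and the promoter shared by the ribosomal protein gene RpL34a and Trmt61 had 84.2 with an IDR of 0.697. An intron of Ada2b, a subunit gene of the SAGA acetyltransferase complex, had 82.3 with an IDR of 0.301. Each of these sites overlapped a replicate 1 peak that was strong by signal and had an IDR over the limit. The replicate 1 summit lay 121 bp from that of replicate 2 at elav, 123 bp at the stronger ferritin peak, 23 bp at RpL34a and 234 bp at Ada2b. The strong replicate 1 signal may thus stand for a neighbouring summit. The 18 include pairs of peaks at the ferritin genes and in CG10737 that met the same replicate 1 peak. The procedure behind each library's IDR is not stated.

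The 20 strongest replicate 2 only peaks had replicate 2 signals of 88.3 to 144.6, and replicate 1 signals of 32.1 to 96.6. They were picked for high replicate 2 signal among peaks missing from the replicate 1 list, so the direction of the gap follows from the choice. The strongest peak was the ferritin promoter, where Fer2LCH and Fer1HCH encode the light and heavy chains of the iron storage protein. Its signal was 144.6 (rank 370) in replicate 2. A second replicate 2 only peak of signal 34.5 overlapped it, and both met the same replicate 1 peak. The SerRS and CG17260 promoter had 139.4 in replicate 2 and 39.8 in replicate 1, the widest gap of the 20 in signal.

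Promoters shared by neighbouring genes were frequent among the 20. The Sirt1 and DnaJ-H site had 106.1 in replicate 2 and 42.6 in replicate 1, and the site of CG12099 and the peroxin gene Pex10 had 106.0 and 39.7. The CG2100 and CG1236 site had 102.7 and 32.1. The promoter between tum, a cytokinesis RacGAP gene, and Uba3, a gene of the NEDD8 activating enzyme, had 98.0 and 51.7, and that of CG4709 and CG13126 had 93.4 and 37.3. Single promoters among the 20 belonged to CG14853 (108.1 and 70.1), CG9849 (98.6 and 53.5) and trh, which specifies tracheal cells (91.8 and 39.2). A replicate 1 thresholded peak lay only 30 bp from the trh peak and 366 bp from the CG9849 peak.

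Other sites among the 20 lay in introns. They included an intron of CG32264 (108.4 in replicate 2 and 47.2 in replicate 1), an intron of arr, the Wnt co-receptor gene (107.6 and 63.8), an intron of the clock gene Pdp1 (106.0 and 65.1) and an intron of Ada2b (102.2 and 82.3). The zinc finger gene bowl (101.2 and 44.4), CG10737 (98.3 and 69.8), the ETS regulator gene edl (91.4 and 54.6), the potassium channel gene KCNQ (90.9 and 32.6) and the actin bundling gene Fim (89.4 and 51.7) also held a site in an intron. The last of the 20, 513 bp upstream of Sqor, was intergenic (88.3 and 44.9). A replicate 1 thresholded peak lay 131 bp from the Sqor peak and 232 bp from the KCNQ peak. Of these 20, 5 were over 2000 bp from any TSS, the sites in arr, Pdp1, bowl, CG10737 and edl. A conservative peak overlapped 19 of the 20, the exception being CG2100.

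**Figure D2:**
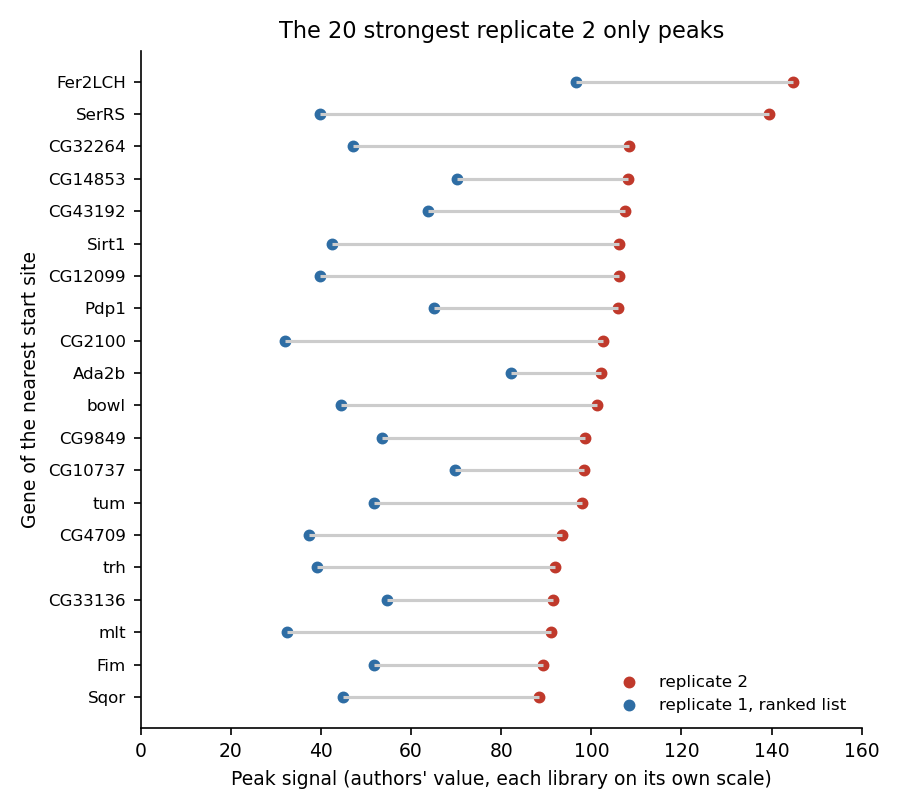
The 20 strongest replicate 2 only peaks, named by the gene of the nearest TSS, with their replicate 2 signal (red) and the signal of the strongest overlapping ranked replicate 1 peak (blue) on the x axis, each on its library's own scale. The peaks were picked for high replicate 2 signal, and the values run from 144.6 and 96.6 at Fer2LCH to 88.3 and 44.9 at Sqor.

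Position differed between the sets. A promoter summit, at most 500 bp away from an annotated TSS, was found for 32.0% of the 628 peaks (interval 28.4 to 35.8), against 49.7% (47.5 to 51.9) of shared peaks and 49.4% (47.2 to 51.6) of replicate 1 only peaks. Introns held 287 (45.7%, interval 41.8 to 49.7), against 36.4% of shared and 32.5% of replicate 1 only peaks. Intergenic DNA held 113 (17.99%, interval 15.1 to 21.2), against 11.4% and 14.0%. Coding exons held 8, 3′ untranslated regions 8, noncoding exons 7 and 5′ untranslated regions 4. Over 2000 bp from any TSS lay 248 (39.5%), against 27.5% of shared peaks.

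At signals above 40, the gap in promoter share was mostly smaller in the higher ranges. The signals between 40 and 80 held 85.5% of the replicate 2 only peaks, and within that range 32.0% of them (interval 28.1 to 36.2, n = 537) were at promoters. The shared peaks in the same range of replicate 2 signal had 45.1% (41.8 to 48.4, n = 892), but they lay nearer its upper end. In narrower ranges the promoter shares of replicate 2 only and shared peaks were 27.2% and 51.8% at signals of 40 to 50, 30.3% and 45.04% at 50 to 60, 39.4% and 43.2% at 60 to 80, and 41.2% and 46.6% at 80 to 100. At signals of 100 to 200, where only 11 replicate 2 only peaks lay, they were 54.5% and 54.3%. Read the other way, 16.5% of the replicate 2 list's promoter peaks were replicate 2 only, as were 27.8% of its intronic and 32.7% of its intergenic peaks.

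Many replicate 2 only promoter peaks lay near the start sites of head-to-head genes. A divergent pair, with a minus strand TSS to the left of a plus strand TSS and both within 500 bp of the summit, was found at 88 of the promoter peaks (43.8%, interval 36.8 to 50.9). The summit need not lie between the genes, and at several it lay inside 1 of them. The shares were 26.7% (24.0 to 29.6) at shared and 16.3% (14.0 to 18.7) at replicate 1 only promoter peaks. Within signals of 40 to 80 they were 43.0%, 22.9% and 17.2%. The distance between sets depended on the window, since within 200 bp of a TSS the shares were 32.5% (24.1 to 41.8) and 23.1% for replicate 2 only and shared peaks, and within 1000 bp 36.4% (30.8 to 42.2) and 30.1%. Most of the promoter summits lay upstream of the nearest TSS (77.6%, median position -134 bp), as did 80.3% at shared promoters, against 57.3% at replicate 1 only promoters.

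**Figure D3:**
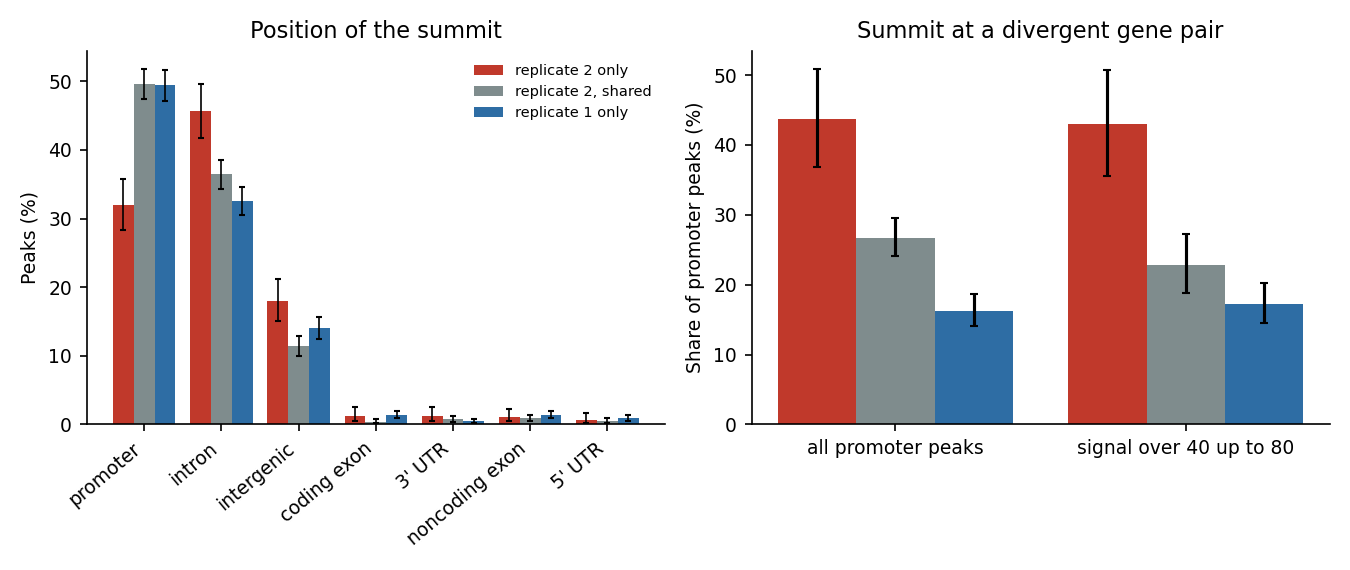
Left, the share of peaks (y axis, %) by position of the summit for replicate 2 only (red, n = 628), shared (grey, n = 2047) and replicate 1 only peaks (blue), with 95% exact intervals. Right, the share of promoter peaks at a divergent gene pair, for all signals and for signals over 40 up to 80, in the same colours, where the red bars stand at 43.8% and 43.0%.

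The replicate 2 only and the replicate 1 only peaks differed widely in base composition. The summit with 100 bp on each side had a median GC content of 33.8% (interval 32.8 to 34.8) in replicate 2 only peaks, 35.8% (35.3 to 36.3) in shared peaks and 46.3% (45.8 to 46.8) in replicate 1 only peaks. The chromosome arms as a whole have 42.1% GC, and the ranked lists had medians of 46.3% in replicate 1 and 45.3% in replicate 2. At promoters the medians were 31.8%, 35.3% and 46.8% in the same order. A GC content of 30% or less was found in 27.7% of replicate 2 only, 19.9% of shared and 4.55% of replicate 1 only peaks. Within signals of 40 to 80 the medians were 33.3%, 36.8% and 45.8%. Replicate 2 only and shared peaks had medians of 34.3% and 40.3% at signals of 40 to 50, 33.6% and 38.1% at 50 to 60, and 32.1% and 35.8% at 60 to 80. At signals of 20 to 40 the order was the reverse, with 44.8% (n = 20) and 39.8% (n = 26).

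On average the GC content was lowest at the summit itself. In 41 bp windows the mean GC content of replicate 2 only peaks was 32.7% at the summit and rose above that of the arms within 140 bp to the right of it. The replicate 1 only peaks had 45.5% at the summit. The replicate 2 only peaks of signal under 20 were not AT-rich, with a median of 42.8% (39.3 to 47.8, n = 43).

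**Figure D4:**
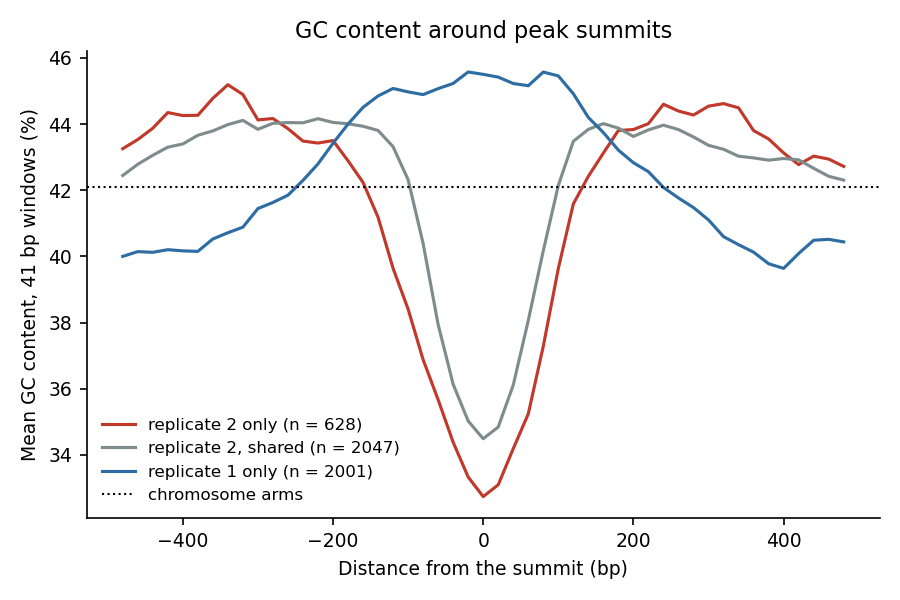
Mean GC content (y axis, %) in 41 bp windows by distance from the summit (x axis, bp) for the 3 sets, with the mean of the chromosome arms dotted at 42.1%. The replicate 2 only (red, 32.7% at the summit) and shared (grey, 34.5%) lines dip at the summit, and the replicate 1 only line (blue, 45.5%) does not.

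The share of each list without a counterpart moved with GC content in opposite directions in the libraries. Of replicate 2 peaks with 25% GC or less, 36.4% (interval 27.8 to 45.6) were replicate 2 only, against 11.7% (8.16 to 16.1) of those over 50%. Between these classes the share changed little at first, with 28.3% at 25% to 30% GC, 24.6% at 30% to 35%, 22.1% at 35% to 40% and 24.8% at 40% to 45%. Of replicate 1 peaks, 16.7% (8.29 to 28.5) with 25% GC or less and 70.9% (67.8 to 73.8) of those over 50% were replicate 1 only. The shared peaks, which passed in both libraries, moved alike. Their median log2 ratio of replicate 1 to replicate 2 signal went from -0.23 at 25% GC or less to 0.03 between 30% and 35% and 0.93 above 50%. At replicate 2 only peaks the median ratio was -0.55 at 25% GC or less, -0.54 between 35% and 40%, and -0.06 above 50%. GC content thus moved with the signal ratio of the libraries at shared peaks. Its part in which peaks were replicate 2 only was not tested.

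**Figure D5:**
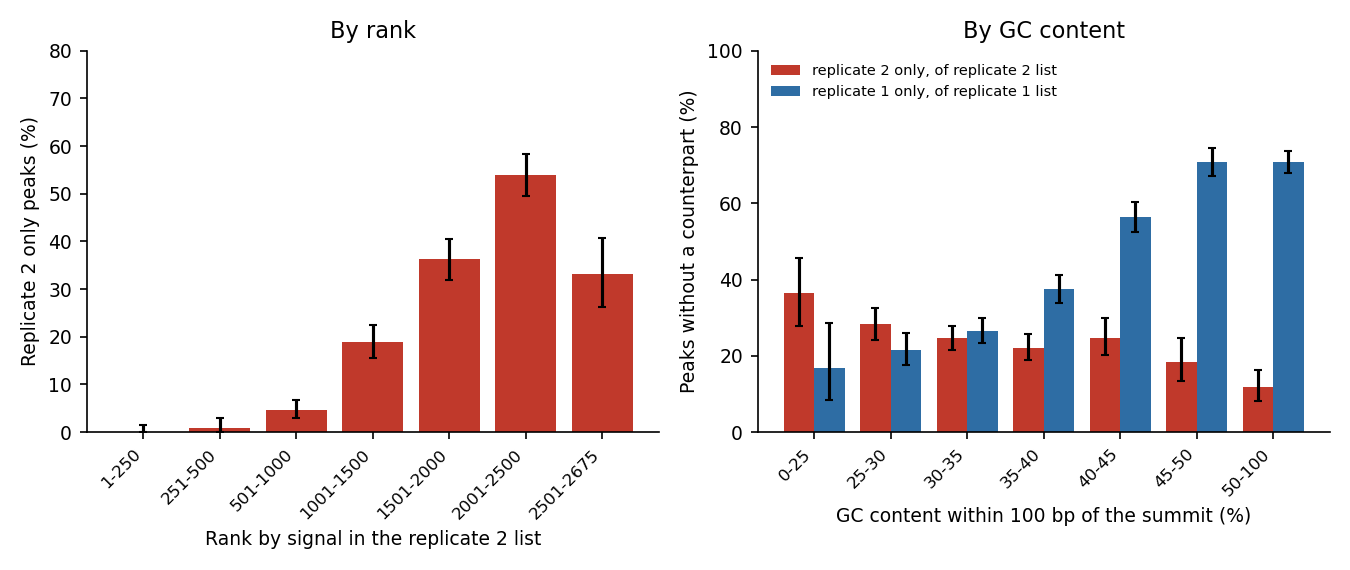
Left, the share of replicate 2 thresholded peaks that were replicate 2 only (y axis, %) by rank of signal (x axis), from 0 of the first 250 to 54.0% of ranks 2001 to 2500. Right, the share of each thresholded list without a counterpart (y axis, %) by GC content around the summit (x axis, %). Replicate 2 only (red) has 36.4% in the lowest GC class and 11.7% in the highest, and replicate 1 only (blue) rises from 16.7% to 70.9%. Bars are 95% exact intervals.

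Short motifs followed this composition in part. Within 100 bp of the summit, the word GAGAGA, the GAGA element that the Trl protein binds, was found on either strand in 7.96% of replicate 2 only peaks (interval 5.97 to 10.4), 15.8% of shared and 22.2% of replicate 1 only peaks. Among peaks of 30% to 40% GC the shares were 6.536%, 13.1% and 11.7%, so at like GC content the replicate 2 only peaks still had the smallest share. The repeat CACACACA was present in 1.75%, 5.08% and 10.9%. AT-rich words went the other way over all peaks. TAATTA, the core bound by many homeodomain proteins, was present in 21.02% (17.9 to 24.4), 15.6% and 8.90%, the GATA word AGATAA in 16.7%, 12.9% and 9.90%, and TATAAA in 37.4%, 33.3% and 17.1%. Among peaks of 30% to 40% GC, TAATTA was in 22.5%, 16.6% and 19.0%, AGATAA in 16.0%, 15.2% and 15.4%, and TATAAA in 36.9%, 38.0% and 31.8%, so at like GC content AGATAA was nearly level and TATAAA was less frequent in replicate 2 only than in shared peaks.

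The other words differed less over all peaks. ACAGTG, which was chosen because earlier results of these data had named it, was in 16.6% of replicate 2 only peaks (interval 13.7 to 19.7), 19.5% of shared and 13.3% of replicate 1 only peaks. The DRE core ATCGAT was in 5.89%, 5.81% and 6.80%, and the Zelda word CAGGTA in 3.82%, 3.81% and 4.05%. The E-box words CAGGTG (3.82%, 5.03% and 5.70%) and CAGCTG (7.64%, 9.09% and 11.6%), the heat shock word GAANNTTC (5.57%, 5.18% and 4.90%) and AAAAAAAA (15.1%, 15.2% and 10.9%) were also counted. At 30% to 40% GC, ACAGTG was in 19.6%, 25.4% and 15.8%, and CAGGTG in 2.29%, 5.22% and 5.12%. AT-rich words such as TAATTA and TATAAA can share bases, and a match is not a bound site.

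By chromosome arm, 120 of the 628 peaks lay on 2L, 113 on 2R, 152 on 3L, 144 on 3R, 97 on X, 2 on the small chromosome 4 and none on Y, which had no replicate 2 thresholded peak. They made up 19.1% (interval 15.8 to 22.8) of the replicate 2 peaks on X and 23.3% to 25.6% on the 4 large autosome arms. Per megabase there were 4.12 on X and 4.47 to 5.41 on the large autosome arms.

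At the level of genes, 273 of 13968 protein-coding genes (1.95%) had a promoter summit of a replicate 2 only peak, and 10.1% had one of any replicate 2 thresholded peak. For 235 of the 273 no replicate 1 thresholded peak had its summit at the promoter, and 216 had none at the promoter or in the gene body. The peaks were chosen for lacking an overlapping replicate 1 thresholded peak, so these counts follow in large part from the rule. A shared replicate 2 peak also lay at the promoter of 17 of the 273. The gene seq itself was not among the 273. The 2 replicate 2 peaks near it, with signals of 116.1 and 55.3, lay upstream of the annotated gene, and both were shared, with replicate 1 signals of 74.8 and 90.1.

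Lists of developmental and housekeeping genes had replicate 2 only promoter summits about as often as other genes. Over 18 lists of genes, 736 protein-coding genes in all, 11 had a replicate 2 only promoter summit (1.49%, near the 1.95% of all protein-coding genes), while 124 (16.8%) had a shared one, against 8.23% of all protein-coding genes. No promoter of the 30 segmentation genes had a replicate 2 only summit, and 17 had a shared one. For the 35 transcription factor genes of neuronal identity the counts were 0 and 13, for 29 mesoderm and muscle genes 0 and 8, for 29 Polycomb and Trithorax genes 0 and 8, and for 13 glycolysis genes 0 and 6. At a share of 1.95%, lists this short would hold few or no such genes, so a count of 0 says little about them. The cell cycle list had 0 and 1 of 27, the microRNA list 0 and 3 of 260, and neither the 71 cuticular protein genes of the Cpr family nor the 179 odorant, gustatory and ionotropic receptor genes had any.

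Of the 11 listed genes, 6 belong to the lists of ribosomal proteins, translation factors and the proteasome. Among 93 cytoplasmic ribosomal protein genes there were 2 (32 had a shared summit), RpL28, whose promoter it shares with the initiation factor gene eIF1 (76.8 in replicate 2 and 48.3 in replicate 1), and RpL34a (53.0 and 84.2). Of 73 mitochondrial ribosomal protein genes there were 2, mRpS26 (71.0 and 33.5) and mRpL16 (51.4 and 55.9), with 9 at shared summits. Of 16 insulator and architectural protein genes there were 2, M1BP (78.9 and 47.3) and BEAF-32 (57.5 and 27.7), with 6 at shared summits. The proteasome list had Rpn5 (51.3 and 37.9) of 32, with no shared summit. Of 34 translation factor genes eIF1 was the only one, with 7 at shared summits. Several of these promoters have an unlisted neighbour. The summits counted for M1BP, mRpS26 and Rpn5 lay nearest to a TSS of CG8202, CG13698 and Hat1. That of mRpL16 was also within 500 bp of a TSS of trr.

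The remaining listed promoters were those of single genes. The promoter of mam, a co-activator gene of the Notch pathway, had 85.2 in replicate 2 and 48.9 in replicate 1, and it was the listed gene that also had a replicate 1 thresholded promoter peak. It was 1 of 22 Notch pathway genes, of which 6 had a shared summit. The promoter of unc-5, a Netrin receptor gene of axon guidance, had 75.6 and 43.6 and was the only one of 36 guidance genes, against 9 with a shared summit. The stress list had stv, a co-chaperone gene (56.0 and 16.1), of 22 genes, with 6 at shared summits. Of 290 transfer RNA genes, tRNA:Glu-CTC-3-4 had one (41.7 and 14.9), with 6 at shared summits.

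Some gene bodies held several replicate 2 only peaks. The genes below were picked for such counts, and over all replicate 2 thresholded peaks the share that was replicate 2 only was 23.5%. The gene fz, which encodes the Frizzled receptor of planar polarity, had 4 of its 5 replicate 2 peaks in this set, all in introns, with replicate 2 signals of 60.9, 52.2, 48.1 and 45.9 and replicate 1 signals of 52.2, 13.7, 46.6 and 36.7 in the same order. The body of fz also held 2 replicate 1 thresholded peaks elsewhere. All 3 replicate 2 peaks of Drak were in this set (73.2, 63.0 and 58.1, with 44.3, 41.6 and 43.6 in replicate 1). The kinesin gene Klp98A had 3, with no replicate 1 thresholded peak in its body. Of these, 1 had a signal of 2.20 and lay beside another of 50.4. The gene fru, known for its part in male courtship, had 3 of 5, with 73.4, 72.2 and 52.0 in replicate 2 and 28.8, 49.6 and 10.9 in replicate 1. CG1677 and the overlapping lncRNA:CR44357 on X shared the same 5 intronic peaks, with replicate 2 signals of 42.3 to 54.4. In all, CG1677 held 10 replicate 2 and 8 replicate 1 thresholded peaks, and lncRNA:CR44357 held 11 and 19. CG32264 held 4 replicate 2 only peaks of its 8 replicate 2 peaks, with 9 replicate 1 thresholded peaks in its body. Snoo held 3 of 8, with 8 in replicate 1, and ftz-f1 3 of 5, with 7 in replicate 1. Gene length was not adjusted for.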

How the data were processed

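Peaks were read from the lists deposited by the authors for the 2 libraries, both replicates of 1 group, and from their pooled and conservative lists, in dm6 coordinates (per the deposited text files). The authors' score of a thresholded peak is higher at a lower IDR and was at least 830. The global IDR stands in the authors' ranked lists as −log10 with a cap of 5. The deposited signal is the peak caller's value against a control library that was not analysed here. A further 8 columns per ranked list went unused. The peak caller, aligner and their versions are not given in the sources used here, and read depth is unknown.

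Positions were set against Release 6 and Ensembl BDGP6.54, release 115, on the 7 chromosome arms, Y included. Coordinates are counted from 1. A summit was classed as promoter within 500 bp of any TSS, and otherwise, in this order, as 5′ UTR, coding exon, 3′ UTR, noncoding exon, intron or intergenic. Where several replicate 1 ranked peaks overlapped a peak, the strongest gave the signal and all of them the lowest IDR. GC content and 12 motifs were read at the summit with 100 bp on each side. In all, 70 replicate 2 and 131 replicate 1 ranked peaks pass the IDR limit but are absent from the thresholded lists. They were not used as peaks, and no replicate 2 only peak overlapped the 131. Intervals are exact (Clopper-Pearson for shares, order statistics for medians) at 95%. No p-value was computed.

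Named were seq, the 20 strongest peaks, the 5 strongest without a ranked replicate 1 peak, the 5 with the lowest replicate 1 IDR, the 5 strongest over 2000 bp from a TSS, and up to 5 promoters per gene list. Further names were picked with their values in view. The peak set, gene lists and motifs were chosen with earlier results of these data known. Of the listed genes, 3 were not matched. Overlap, annotation and motif steps were tested on simulated data. Scripts ran in Python 3.11.15 with scipy 1.17.1, pandas 2.3.3, numpy 2.4.6 and, for figures, matplotlib 3.10.9.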

Additional observations from a re-analysis of the deposited data

How the results depend on the processing

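The number of replicate 2 only peaks was 628, and stayed within 1.5 times of that at a reciprocal overlap of 50% (925), with summits within 100 bp (813) or with peaks within 500 bp counted as shared (552). It was 296 with replicate 1 ranked peaks up to an IDR of 0.1, 17 with all of them, and 138 with a replicate 2 IDR of 0.001 or less. In that strict set of 138 the promoter share was 39.9% (51.1% in shared peaks), the median GC content 31.3% (34.8% in shared peaks), the median rank percentile 49.0 against 76.1, the share with a conservative peak 82.6%, and the number of protein-coding genes with a promoter summit 91. The promoter share was 18.6% at a TSS window of 200 bp and 45.5% at 1000 bp (31.9% and 60.7% in shared peaks), and the 200 bp window left 151 genes. Median GC content was 31.7% with 50 bp on each side of the summit, 38.2% with 200 bp and 37.1% over whole peaks (32.7% with 50 bp and 39.7% with 200 bp in shared peaks). A ranked replicate 1 peak held the summit of 93.5%, and 81.5% had summits within 100 bp. Settings chosen after seeing the data (signal of 20 or more, merged regions, signals of 40 to 80) moved neither the promoter share nor the median GC content outside its interval. Of all 38 alternative values, 20 stayed within the interval or the 1.5 times of the value as reported.

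Leaving out a replicate was not possible, since the rule needs both libraries. No paired analysis was possible because there is 1 group. Read depth is unknown, so it cannot be said whether a replicate 1 peak was missed for want of reads.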
